A study of Mus musculus with 2 samples.

Results

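The genes described here encode the subunits of the mitochondrial respiratory chain and of the ATP synthase that are made from nuclear DNA. They were chosen by symbol, as genes of the Nduf, Sdh, Uqcr, Cox and Atp5 series without pseudogenes named as such. The pattern took 90 symbols of a mouse gene table. Of these, 83 had a probe named through its transcript accession, among 23786 genes named in this way on the array. The 7 without one were Cox5b, Ndufb1, Ndufb4b, Ndufb4c and 3 entries the table lists as pseudogenes, Ndufs6b, Cox6c2 and Ndufa11b.

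The respiratory chain passes electrons from NADH and succinate through 4 membrane complexes to oxygen and pumps protons across the inner mitochondrial membrane. ATP synthase lets the protons flow back and makes ATP. Dendritic cells that rest, or that tolerate antigen, are known to draw on this pathway, whereas strongly activated dendritic cells turn to glycolysis and make lactate.

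The samples were 2 RNA preparations of bone marrow-derived dendritic cells (BMDCs), antigen-presenting cells grown from mouse marrow. 1 came from cells labelled Egr1-deficient and 1 from cells labelled WT, and both were labelled as male C57BL/6J. EGR1 is a zinc-finger transcription factor made within minutes of many stimuli. Femoral marrow was cultured with 10 ng/ml GM-CSF, a growth factor for myeloid cells, and harvested on day 6 in both groups. Neither the kind of Egr1 allele nor any pooling of mice is given in the sources used here. Each preparation was read on 1 one-colour Agilent array, so every value below is a single reading per group, no test could be made and no p-value is given.

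Checks of the labels came out mixed. Egr1 itself, measured by 1 probe, gave 1212 in the sample labelled EGR1-deficient and 379.7 in the WT sample, 3.05-fold higher in the cells labelled as lacking it. Where this probe lies relative to the targeted part of the gene is not given, and a probe outside a deleted part checks nothing. Xist, the X-inactivation RNA of female cells, read 4559 in EGR1-deficient and 3425 in WT cells, while the signals of Ddx3y, Kdm5d and Uty, on the Y chromosome, stayed at background in both samples, which goes against the male label. Another Y-linked gene, Eif2s3y, was well above background in both, at 27.1 in EGR1-deficient and 25.6 in WT cells. These values are near the lowest signals called above background, 13.3 in EGR1-deficient and 16.3 in WT cells. All directions below, and the names EGR1-deficient and WT, follow the labels as they stand. All 9 dendritic cell markers checked, among them Itgax and H2-Ab1, were well above background on both arrays, with a summed signal of 52001 in the sample labelled EGR1-deficient and 52060 in the WT sample.

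A signal is the scanner program's processed intensity in arbitrary units, and signals of different probes are not comparable as amounts of transcript. A difference is the log2 signal after division by the array's 75th percentile, EGR1-deficient minus WT. The percentiles were 191.6 in the sample labelled EGR1-deficient and 183.0 in the WT sample, so equal signals give a difference of −0.07. The available errors are technical. Repeated spots of 1 probe gave a median SD of 0.07 for a difference, over 255 probes, and 2 probes of the same gene a median SD of 0.17, over 3571 genes.

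Nearly all of the respiratory chain and ATP synthase genes read slightly lower in the sample labelled EGR1-deficient, and none stood far apart. Of the 83 genes, 79 were well above background on both arrays by the scanner program's call, and the median of their differences was −0.16, against −0.05 over all 13724 named genes above background on both. Differences were below 0 for 74 of the 79 genes, where 57.4% of all genes were below 0. Under other scalings this count was 57 after quantile normalization, 59 after loess normalization and 67 with the authors' series table. The shares of all genes below 0 were then 54.1%, 55.1% and 48.3%. The median of the genes lay below the median of all genes in each of the 9 processings run. Centring on the median and the series table move all genes by 1 constant, so they could hardly change that order. The median of the genes minus that of all genes was −0.11 with the 75th percentile, −0.07 after quantile normalization and −0.06 after loess. For 72 of the 79 the difference was below the median of all genes, which by construction holds for 50% of all genes. None was 1.5-fold or more lower, against 4.18% of all genes, and none was 1.5-fold or more higher, against 3.51%. Those shares are smaller among bright genes, as most of the 79 are. Over all genes with a signal of at least 100 on both arrays they were 1.65% and 0.802%. Of the 3431 genes in the brightest 25%, 27 were lower and 7 higher by that much. The lack of such genes among the 79 is therefore close to what bright genes show. A limit of 1.25-fold, chosen after the values were seen, was passed downward by 10 of the 79 genes, or 12.7%, close to the 15.5% of all genes.

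**Figure D1:**
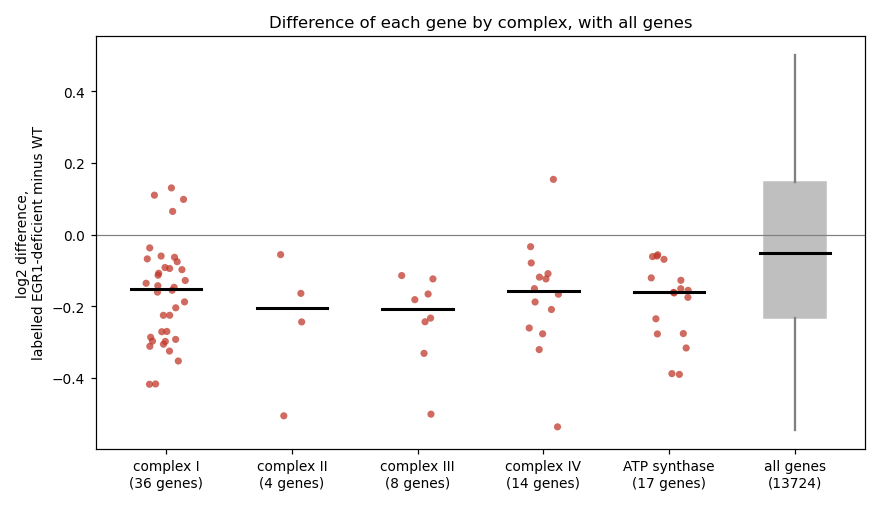
Each red point is the log2 difference (labelled EGR1-deficient minus WT) of 1 gene above background on both arrays, placed by complex, and black bars are medians. The grey box spans the quartiles of all 13724 genes, −0.23 to 0.15, and its lines the 5th to 95th percentiles. The red points lie between −0.54 and 0.15. Their own quartiles, −0.28 and −0.10, run from below that box into its lower part.

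The differences of the 79 genes had an SD of 0.14 between genes, and their middle values ran from −0.28 at the first quartile to −0.10 at the third. That SD lies between the SD of 2 probes of 1 gene over these genes, 0.09 (18 genes), and that over all genes, 0.17. For 47 genes the difference lay within 0.17 of the median of all genes, for 30 it was lower by more than that and for 2 higher by more. The lower and upper quartiles of all genes, −0.23 and 0.15, also lie further than 0.17 from that median. All genes outside these quartiles therefore pass the limit too, on both sides. The exact shares of all genes past it are not given here, so how unusual the 30 are was not tested. The medians of the 5 complexes were close to each other. They were −0.15 for complex I, −0.20 for complex II, −0.21 for complex III, −0.16 for complex IV and −0.16 for ATP synthase. They spread further after quantile normalization, between −0.15 for complex II and −0.057 for ATP synthase, and after loess, between −0.13 for complex II and −0.062 for ATP synthase.

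Strong signals went with small negative differences across the whole array, and most of these genes give strong signals. When all genes were cut into 10 equal classes by mean signal, 57 of the 79 lay in the 2 brightest classes, where the median difference over all genes was −0.11 and −0.09. The brightest 25% of all genes had a median of −0.10, with 69.7% below 0. Set against all genes of their own class, 61 of the 79 lay below the median, and the median gap was −0.07.

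**Figure D2:**
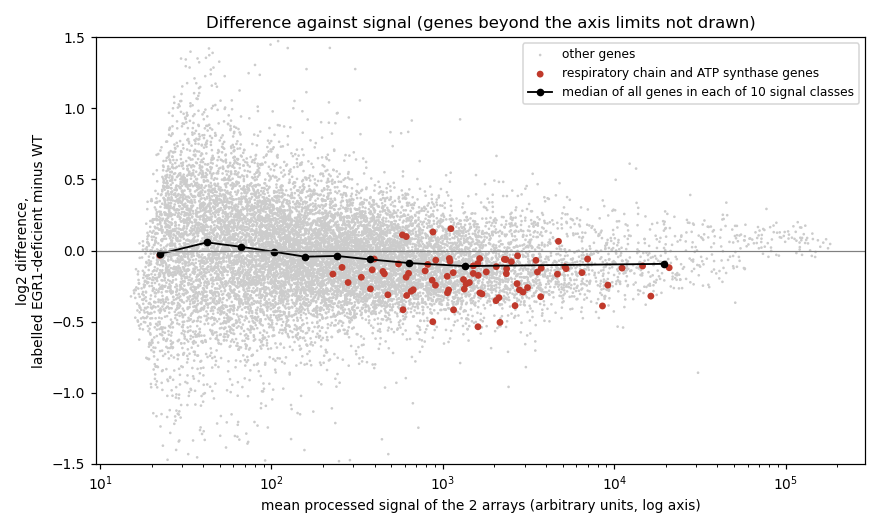
The x axis is the mean processed signal of both arrays on a log scale and the y axis the log2 difference (labelled EGR1-deficient minus WT). Grey points are other genes, red points the respiratory chain and ATP synthase genes, and the black line joins the medians of all genes in each of 10 signal classes, which lie between −0.11 and 0.06.

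Promoter sequences are shown for 5 genes that mark the ends of the range or carry a motif of interest. Of the 83 genes, 67 had a RefSeq promoter (build GRCm38.p6, from 250 bases before to 50 after the start), and motifs were sought on both strands of that whole window. The EGR1 motif, GCGGGGGCG or GCGTGGGCG, was present in 1 of the 67, against 3.93% of all 27025 genes with a promoter. That gene is Atp5g2, whose difference was −0.07, the value that equal signals give. Cox6a1 holds the motifs of both NRF1 and GABPA, factors known to drive respiratory genes. Cox7b and Uqcrfs1 were among the 3 lowest genes, and Ndufv2 was the second highest; Sdhc and Cox4i2, also at the ends of the range, are named only. The 250 bases before the start are given 5′ to 3′ on the gene's strand, with motif matches in capitals.
Atp5g2, chr15:102671048-102671297, minus strand: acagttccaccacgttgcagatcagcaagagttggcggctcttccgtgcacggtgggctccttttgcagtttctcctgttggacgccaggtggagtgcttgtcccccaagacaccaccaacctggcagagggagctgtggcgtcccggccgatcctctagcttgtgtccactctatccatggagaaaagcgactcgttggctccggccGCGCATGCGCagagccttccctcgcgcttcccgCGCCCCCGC
Cox6a1, chr5:115348959-115349208, minus strand: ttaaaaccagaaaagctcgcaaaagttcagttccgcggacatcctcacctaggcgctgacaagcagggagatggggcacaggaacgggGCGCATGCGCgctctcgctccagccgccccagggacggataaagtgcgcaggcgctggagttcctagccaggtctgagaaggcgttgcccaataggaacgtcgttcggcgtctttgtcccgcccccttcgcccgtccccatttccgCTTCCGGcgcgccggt
Cox7b, chrX:106015450-106015699, plus strand: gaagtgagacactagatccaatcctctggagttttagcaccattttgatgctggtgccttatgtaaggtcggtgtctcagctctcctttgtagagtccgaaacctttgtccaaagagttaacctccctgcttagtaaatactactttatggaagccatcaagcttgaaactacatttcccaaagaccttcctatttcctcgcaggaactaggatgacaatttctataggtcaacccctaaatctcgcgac
Uqcrfs1, chr13:30545317-30545566, minus strand: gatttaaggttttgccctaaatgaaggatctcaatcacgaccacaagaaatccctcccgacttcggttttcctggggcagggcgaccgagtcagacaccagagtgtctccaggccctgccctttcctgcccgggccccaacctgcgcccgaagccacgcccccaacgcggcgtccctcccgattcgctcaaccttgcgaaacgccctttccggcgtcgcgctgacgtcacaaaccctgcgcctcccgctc
Ndufv2, chr17:66101560-66101809, minus strand: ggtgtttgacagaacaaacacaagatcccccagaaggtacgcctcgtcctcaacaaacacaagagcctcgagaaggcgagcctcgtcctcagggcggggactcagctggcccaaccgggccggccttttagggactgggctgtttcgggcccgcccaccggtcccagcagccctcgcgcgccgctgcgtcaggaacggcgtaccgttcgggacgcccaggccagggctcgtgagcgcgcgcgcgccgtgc

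In Atp5g2 the capitals mark an NRF1 motif that begins 42 bases before the start and the reverse complement of the EGR1 motif that ends at it. In Cox6a1 they mark an NRF1 motif 162 bases before the start and a GABPA motif, on the other strand, 16 bases before it. No 2 of these matches overlap. Neither Cox7b nor Uqcrfs1 nor Ndufv2 holds any of the motifs in the bases printed. The printed Cox7b promoter is 43.6% G and C, and the other 4 are between 62.4% and 68.0%.

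Motifs of factors linked to respiratory genes were found in a larger share of these promoters than of all promoters, and genes with and without them had similar median differences. The NRF1 motif, a palindrome of alternating G and C around a central AT pair, was present in 5 of 67 (7.46%), against 1.07% of all genes, and the GABPA motif CCGGAAG in 17 of 67 (25.4%), against 9.93%. The YY1 motif AAGATGGCG was present in 7 (10.4%, against 1.64%) and the estrogen-related receptor motif TCAAGGTCA in 2 (2.99%, against 0.466%). The median difference in signal was −0.17 for the 5 genes with the NRF1 motif and −0.17 for the 60 measured genes without it. For GABPA it was −0.18 for 17 genes with the motif and −0.16 for 48 without. A match describes letters in the window and does not show that a factor binds there.

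Complex I is the NADH dehydrogenase that feeds electrons to coenzyme Q. It gave 36 genes above background on both arrays, of which 32 were below 0, against 57.4% of all genes. Some of the 32, among them Ndufa2 and Ndufa7, rose above 0 in other processings. The lowest were a pair of subunits of the arm that oxidises NADH. Ndufs4, an accessory subunit whose loss in mice causes a Leigh-like brain disease, read 1023 in the sample labelled EGR1-deficient and 1304 in the WT sample, a difference of −0.42. Ndufs1, the largest iron-sulfur subunit, read 519 in EGR1-deficient and 661 in WT cells, also −0.42. Each rests on 1 probe. Both lie further below 0 than the SD of 0.17 between probes, but they are named as the lowest of the complex. That SD is technical and holds no variation between cultures, so passing it sets neither gene apart.

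The NADH-oxidising arm held both ends of the complex I range. Ndufv2, the iron-sulfur partner of the flavin subunit, read 937 in the sample labelled EGR1-deficient and 818 in the WT sample, a difference of 0.13, the highest of the complex. The flavin subunit Ndufv1, where NADH is oxidised, read 585 in EGR1-deficient and 637 in WT cells (−0.19, with a second probe at −0.15). Over the 10 subunits of this arm the median was −0.23, with Ndufa12 at −0.30, Ndufs6 and Ndufa6 at −0.27, Ndufv3 at −0.11, Ndufa7 at −0.06 and Ndufa2 at −0.04.

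The arm that hands electrons to coenzyme Q spread on both sides of 0. Ndufa5, an accessory subunit, read 1851 in the sample labelled EGR1-deficient and 2257 in the WT sample, and its 2 probes gave −0.35 and −0.36. Ndufs7, which carries the last iron-sulfur cluster before the quinone, read 618 in EGR1-deficient and 547 in WT cells, a difference of 0.11. Between these ends, Ndufs8 differed by −0.30 and Ndufs3 by −0.13.

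The membrane arm, through which complex I pumps protons, showed the same small shift in its inner and outer parts. The 10 subunits of the inner part had a median of −0.15 and the 10 of the outer part −0.15. At the inner part, Ndufa1, a small subunit needed for assembly, read 3404 in the sample labelled EGR1-deficient and 4072 in the WT sample (−0.32), and Ndufa9 read 648 in EGR1-deficient and 578 in WT cells (0.10). Ndufa3 was −0.29 in 1 probe and 0.07 in the other, so its 2 probes differ in sign. Ndufa13, also known as GRIM-19, had the highest signals of the complex, 6285 in EGR1-deficient and 6686 in WT cells, a difference of −0.16. The others of the inner part were Ndufa11 (−0.29), Ndufc2 (−0.23), Ndufc1 (−0.15), Ndufa8 (−0.14), Ndufa10 (−0.07) and Ndufs5 (−0.06).

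At the outer part, Ndufb8, a subunit often used as an antibody marker of assembled complex I, read 439 in the sample labelled EGR1-deficient and 520 in the WT sample (−0.31). Ndufb5 read 1559 in EGR1-deficient and 1840 in WT cells (−0.31), and its dimmer probe 101 in EGR1-deficient and 152 in WT cells, a difference of −0.66. Ndufb7 read 4946 in EGR1-deficient and 4517 in WT cells (0.06) and was the only gene of this part above 0. Ndufb2 and Ndufb3 differed by −0.23 and −0.20, Ndufb6 and Ndufb9 by −0.16 and −0.14, and Ndufb4, Ndufb10 and Ndufb11 by −0.09 to −0.10.

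A further pair of genes carries an Nduf symbol and belongs to neither arm. Ndufa4, whose protein is now counted with complex IV, read 1097 in the sample labelled EGR1-deficient and 1104 in the WT sample (−0.08). Its relative Ndufa4l2, which is induced by hypoxia and lowers complex I activity, read 20.1 in the sample labelled EGR1-deficient, where it was well above background, and 13.2 in the WT sample, where it was not. This makes it at least 1.18-fold higher in the sample labelled EGR1-deficient, near the lower end of what the arrays call measurable. The bound uses the lowest well-above-background signal of the WT array, 16.3.

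**Figure D3:**
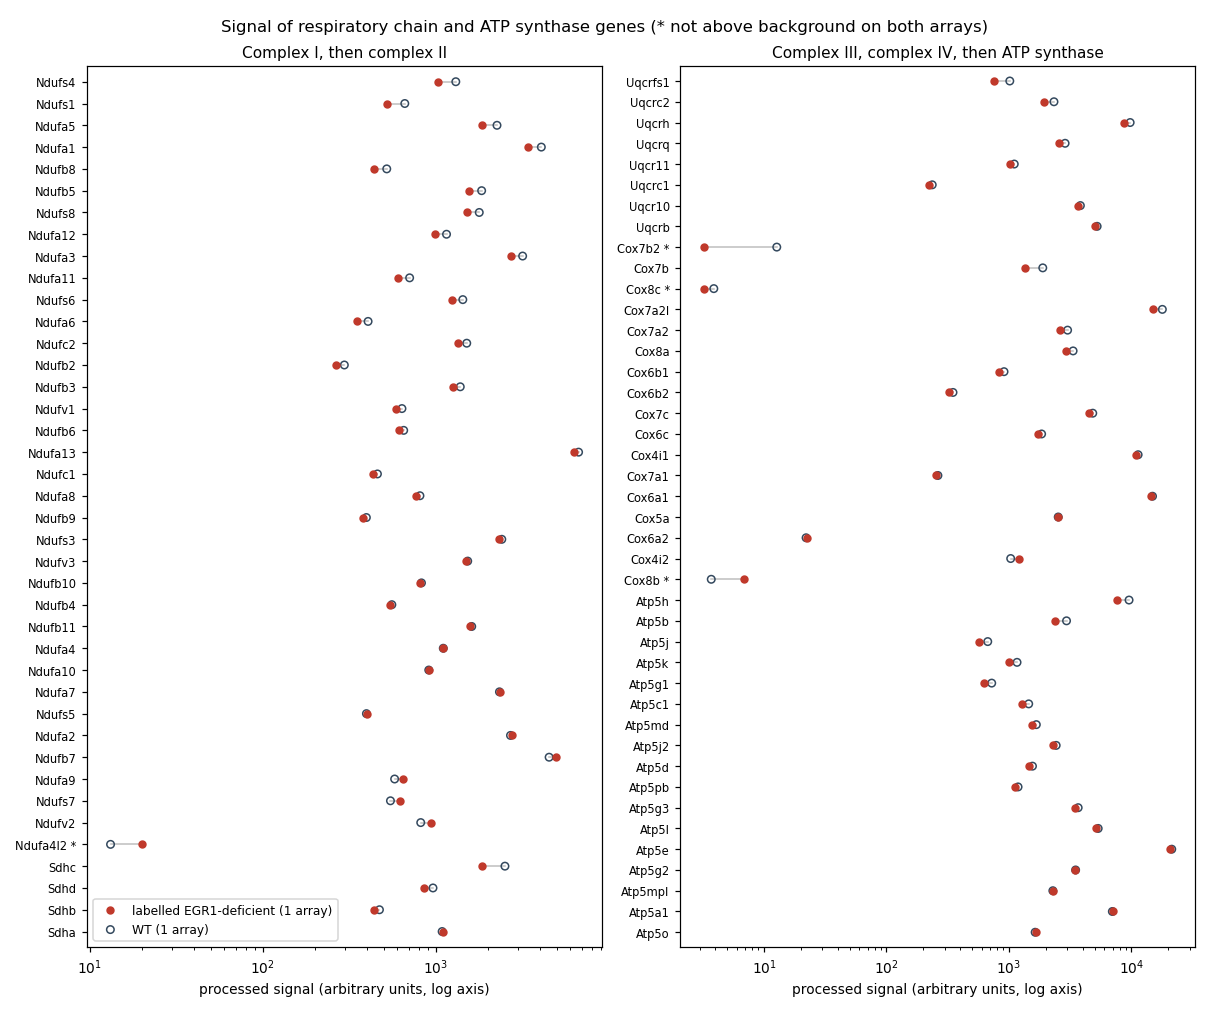
Processed signal (arbitrary units, log axis) of 82 of the 83 genes in the sample labelled EGR1-deficient (filled red) and in the WT sample (open), before scaling, sorted by difference within each complex. Of the 78 genes drawn that were above background on both arrays, 65 had the filled point to the left; the starred genes Ndufa4l2, Cox7b2, Cox8b and Cox8c were not above background on both.

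Complex II, succinate dehydrogenase, joins the citric acid cycle to the respiratory chain. All 4 of its genes were below 0, against 57.4% of all genes. Sdha and Sdhb rose above 0 in at least 1 other processing. Sdhc, a membrane anchor that helps bind coenzyme Q and haem, read 1851 in the sample labelled EGR1-deficient and 2509 in the WT sample, a difference of −0.51 from 1 probe. The other anchor, Sdhd, read 851 in EGR1-deficient and 963 in WT cells (−0.24). Smaller differences came from the catalytic head, whose iron-sulfur subunit Sdhb read 441 in EGR1-deficient and 472 in WT cells (−0.16) and whose flavoprotein Sdha read 1095 in EGR1-deficient and 1088 in WT cells (−0.06). Further probes of the head did not repeat these values. A second probe of Sdhb gave 364 in EGR1-deficient and 278 in WT cells (0.32), the opposite sign, and a second probe of Sdha gave 161 in EGR1-deficient and 196 in WT cells (−0.34).

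Complex III passes electrons from coenzyme Q to cytochrome c, and all 8 of its genes were below 0, against 57.4% of all genes. In at least 1 other processing Uqcr10 and Uqcrb rose above 0. Uqcrfs1, the Rieske iron-sulfur protein that takes the electron from the quinol, read 751 in the sample labelled EGR1-deficient and 1015 in the WT sample, a difference of −0.50. Of the core proteins, which share ancestry with mitochondrial processing peptidases, Uqcrc2 read 1938 in EGR1-deficient and 2328 in WT cells (−0.33) and Uqcrc1 220 in EGR1-deficient and 236 in WT cells (−0.17). Uqcrh, the hinge protein next to cytochrome c1, had the highest signals of the complex, 8625 in EGR1-deficient and 9750 in WT cells (−0.24). The small subunits were Uqcrq at −0.23, Uqcr11 at −0.18, Uqcr10 at −0.12 and Uqcrb at −0.11, and further probes of Uqcr10 and Uqcrb gave −0.25 and −0.43. Cyc1, cytochrome c1, which the symbol pattern leaves out, read 460 in EGR1-deficient and 512 in WT cells (−0.22).

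Complex IV, cytochrome c oxidase, reduces oxygen, and 14 of its 17 genes were above background on both arrays. Cox7b, an X-linked subunit needed for assembly, was the lowest of all 79 genes, with 1362 in the sample labelled EGR1-deficient and 1887 in the WT sample, a difference of −0.54 or 1.45-fold lower, from 1 probe. Under the other processings it lay between −0.65 and −0.42. Cox7a2l, which joins complexes III and IV in supercomplexes and is carried by C57BL/6 mice as a shortened allele, had the highest signals of the complex, 14969 in EGR1-deficient and 17855 in WT cells (−0.32). The remaining general subunits were Cox7c at −0.17, Cox6c at −0.15 and Cox5a at −0.08.

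Several complex IV subunits come in isoforms of different tissues, each read here by 1 probe named for it. Whether such a probe also catches a related isoform was not tested. The general isoform Cox4i1 read 10884 in the sample labelled EGR1-deficient and 11326 in the WT sample (−0.12). Its relative Cox4i2, known from lung and from cells short of oxygen, read 1203 in EGR1-deficient and 1032 in WT cells and was the highest of the 79 genes, at 0.15. It stayed above 0 in all 9 processings, between 0.04 and 0.25, and rests on 1 probe. Cox6a1, the general form, read 14409 in EGR1-deficient and 14842 in WT cells (−0.11), and the heart and muscle form Cox6a2 read 22.6 in EGR1-deficient and 22.1 in WT cells, close to the lowest signals called above background, 13.3 in EGR1-deficient and 16.3 in WT cells.

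The other isoforms lay slightly below 0 or in background. Cox7a2, the general form, read 2600 in the sample labelled EGR1-deficient and 3008 in the WT sample (−0.28), and the heart and muscle form Cox7a1 read 254 in EGR1-deficient and 263 in WT cells (−0.12). Cox6b1 read 825 in EGR1-deficient and 911 in WT cells (−0.21), and Cox6b2, known from testis, 321 in EGR1-deficient and 349 in WT cells (−0.19). Cox8a, the general form, read 2916 in EGR1-deficient and 3336 in WT cells (−0.26). The muscle form Cox8b and the testis forms Cox8c and Cox7b2 stayed at background in both samples, so they have no difference. Of 8 heart and skeletal muscle markers checked, 5 were above background on each array, with a summed signal of 278 in EGR1-deficient and 297 in WT cells and a median difference of 0.05. Acta1 alone was far lower in the sample labelled EGR1-deficient, with 19.5 in EGR1-deficient and 74.4 in WT cells (−1.99).

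ATP synthase gave 17 genes, all above background on both arrays and all below 0, against 57.4% of all genes below 0. Before scaling, Atp5a1, Atp5mpl and Atp5o read slightly higher in EGR1-deficient cells, so their sign rests on the scaling. In at least 1 other processing Atp5a1, Atp5e, Atp5g2, Atp5g3, Atp5l, Atp5mpl and Atp5o were above 0. Among the 5 genes of the catalytic head and central stalk, Atp5b, the catalytic beta subunit, read 2359 in the sample labelled EGR1-deficient and 2948 in the WT sample (−0.39). Its other probes did not repeat that size, at 0.00 (1226 in EGR1-deficient and 1169 in WT cells) and −0.19 (148 in EGR1-deficient and 162 in WT cells). The alpha subunit Atp5a1, which stands beside beta in the head, read 7007 in EGR1-deficient and 6976 in WT cells (−0.06, second probe −0.10). The gamma, delta and epsilon subunits of the rotating stalk, Atp5c1, Atp5d and Atp5e, differed by −0.23, −0.16 and −0.12, and Atp5e had the highest signals of the enzyme, 20518 in EGR1-deficient and 21309 in WT cells.

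The peripheral stalk, which holds the head still, had a median of −0.24 over 4 genes. Atp5h, its subunit d, read 7631 in the sample labelled EGR1-deficient and 9550 in the WT sample (−0.39), and its other probes gave −0.12 and −0.32. Atp5j, coupling factor 6, read 564 in EGR1-deficient and 671 in WT cells (−0.32), Atp5pb 1115 in EGR1-deficient and 1186 in WT cells (−0.16) and Atp5o, which ties the stalk to the head, 1647 in EGR1-deficient and 1635 in WT cells (−0.06). A second probe of Atp5o gave −0.30. All 3 probes of Atp5h were thus below 0, but not by the same amount.

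The proton-turned ring is built from subunit c, which 3 genes encode with the same mature protein. Atp5g1 read 625 in the sample labelled EGR1-deficient and 723 in the WT sample (−0.28, second probe −0.51). Atp5g2 read 3490 in EGR1-deficient and 3497 in WT cells (−0.07) and Atp5g3 3460 in EGR1-deficient and 3670 in WT cells (−0.15). The smaller membrane subunits, which help ATP synthases pair and shape the inner membrane, lay between −0.28 for Atp5k and −0.06 for Atp5mpl, with Atp5md at −0.18, Atp5j2 at −0.16 and Atp5l at −0.13.

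Probes of the same gene were a partial check. Of the 79 genes, 20 had 2 or more probes above background on both arrays. In 16 all probes had 1 sign, and in 4, among them Ndufa3, Sdhb and Atp5b, they had both signs. Counted by probe, 92 of 101 were below 0, where 57.4% of all genes, counted by gene, were below 0. The gene table lists 15 pseudogenes named after these genes, and whether probes also catch such copies was not tested. Among the 79 genes, 45 were below the median of all genes in all processings that measured them and 5 above it, Ndufb7, Ndufa9, Ndufs7, Ndufv2 and Cox4i2. The shares of all genes that keep 1 side in this way, or whose probes share 1 sign, are not given here.

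Other lists of mitochondrial genes had medians between −0.30 and 0.03. Counts below 0 in these lists, and in the ribosomal lists further below, stand against 57.4% of all genes below 0. The share was 68.9% for assembly factors and 70% for coenzyme Q synthesis genes. Assembly factors, the proteins that build the complexes and are absent from them when finished, had 31 of 45 measured genes below 0 and a median of −0.09. Uqcc1, a complex III factor, read 92.8 in the sample labelled EGR1-deficient and 154 in the WT sample (−0.79, second probe 0.14). Surf1, a complex IV factor, read 237 in EGR1-deficient and 360 in WT cells (−0.67, second probe −0.39). Bcs1l, which inserts the Rieske protein into complex III, read 198 in EGR1-deficient and 115 in WT cells (0.71), but its other probes gave −1.68 and 0.44, and Atpaf1 gave −0.53 and 0.41. Only Surf1 of these had all its probes of 1 sign.

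Carriers and subunits beyond the symbol pattern had 10 of 12 genes below 0 and a median of −0.23. Dhodh, the pyrimidine enzyme that passes electrons to coenzyme Q, read 73.8 in the sample labelled EGR1-deficient and 99.8 in the WT sample (−0.50). Etfa and Etfdh, which bring electrons from fatty acid oxidation, differed by −0.31 and −0.30, with other probes of Etfa at −0.50 and 0.09, and the ADP and ATP carrier Slc25a5 by −0.31. Ndufab1, the acyl carrier protein of complex I, read 978 in EGR1-deficient and 971 in WT cells (−0.06, second probe 0.11).

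Enzymes of the citric acid cycle and of pyruvate entry had 15 of 18 genes below 0 and a median of −0.15. Pdha1, a pyruvate dehydrogenase subunit, read 160 in the sample labelled EGR1-deficient and 231 in the WT sample (−0.60), and Pdhx of the same enzyme read 66.5 in EGR1-deficient and 31.4 in WT cells (1.02). Idh3g read 1762 in EGR1-deficient and 2455 in WT cells (−0.54, second probe −0.27) and Suclg1 226 in EGR1-deficient and 286 in WT cells (−0.41). Coenzyme Q synthesis genes had 7 of 10 below 0 and a median of −0.30, led by Coq9 (−0.76), Coq5 (−0.65), Coq4 (−0.60) and Coq2 (−0.51). All 4 were dim, between 25.6 and 56.4 in the sample labelled EGR1-deficient and between 41.4 and 76.4 in the WT sample.

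Regulators of mitochondrial gene expression lay on both sides of 0, with 7 of 17 measured genes below it and a median of 0.03. The coactivator Ppargc1b read 110 in the sample labelled EGR1-deficient and 161 in the WT sample (−0.61). Tfam, which packages mitochondrial DNA, read 153 in EGR1-deficient and 189 in WT cells (−0.37, second probe −0.51), and Tfb2m, a mitochondrial transcription factor, 601 in EGR1-deficient and 703 in WT cells (−0.29, second probe 1.24). Mterf4 read 82.5 in EGR1-deficient and 64.5 in WT cells (0.29). The 13 subunits encoded by mitochondrial DNA had no probe named through an accession and were not analysed here.

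Ribosomal protein genes gave medians close to that of the respiratory chain. For mitochondrial ribosomal proteins, 60 of 76 were below 0 and the median was −0.20, with Mrps31, Mrpl37 and Mrpl53 at −0.61 to −0.62 and Mrpl28, dim at 60.6 in EGR1-deficient and 22.7 in WT cells, at 1.35. For cytosolic ribosomal proteins, 77 of 81 were below 0 and the median was −0.17, with Rps4l at −0.48, Rpl36al at −0.40, Rpl22 at −0.36 and Rpl29 at −0.34. That list was taken by symbol and also holds genes named after ribosomal proteins. The genes above 0 were of this kind, Rpl22l1, Rpl7l1, Rps19bp1 and Rps23rg1. A downward shift of this size was thus also present in ribosomal protein genes. After loess normalization, which takes out the trend with signal, the medians were −0.09 for the respiratory chain and ATP synthase genes, −0.16 for mitochondrial ribosomal proteins, −0.04 for cytosolic ribosomal proteins and −0.03 for all genes.

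**Figure D4:**
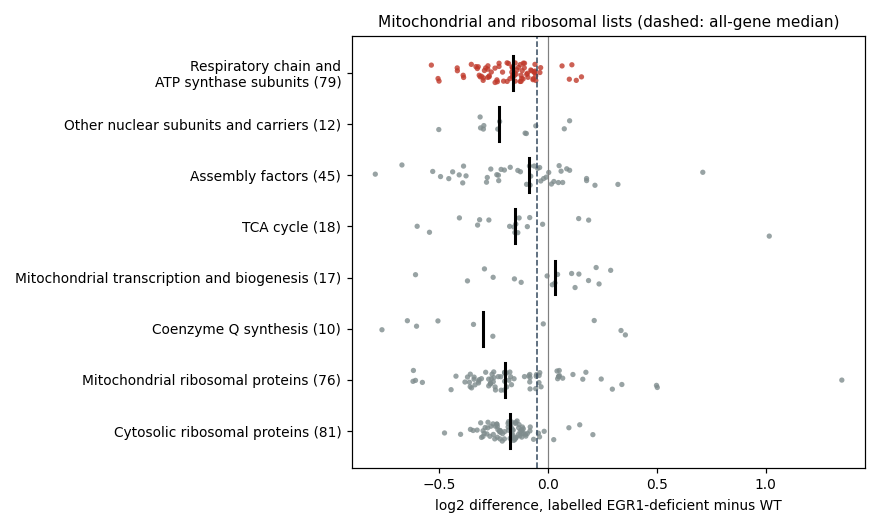
Each point is the log2 difference (labelled EGR1-deficient minus WT) of 1 gene above background on both arrays, with gene numbers in brackets and medians as black bars. The respiratory chain and ATP synthase genes (top, red) have a median of −0.16 and cytosolic ribosomal proteins (bottom) −0.17; the dashed line is the median of all genes, −0.05.

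Markers of cell types differed between the arrays as well. In bulk RNA, fewer cells of a type and less RNA per cell cannot be told apart. All 7 macrophage markers were above background on both arrays, with a summed signal of 25641 in the sample labelled EGR1-deficient and 29737 in the WT sample and a median difference of −0.34. For 5 markers of eosinophils, basophils and mast cells the sums were 3095 in EGR1-deficient and 4417 in WT cells (−0.63), and for 7 neutrophil markers 57808 in EGR1-deficient and 51617 in WT cells (−0.10). Sets of 4 markers each gave low sums. For T and NK cells they were 460 in EGR1-deficient and 235 in WT cells (0.37), with Klrd1 at 1.62. Stromal markers summed to 187 in EGR1-deficient and 88.9 in WT cells (1.02), with 4 above background in EGR1-deficient and 2 in WT cells. B cell markers summed to 83.8 in EGR1-deficient and 128 in WT cells (−1.09), and 3 erythroid markers to 151 in EGR1-deficient and 158 in WT cells (−0.12). The part of these cells in the differences above was not tested.

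**Figure D5:**
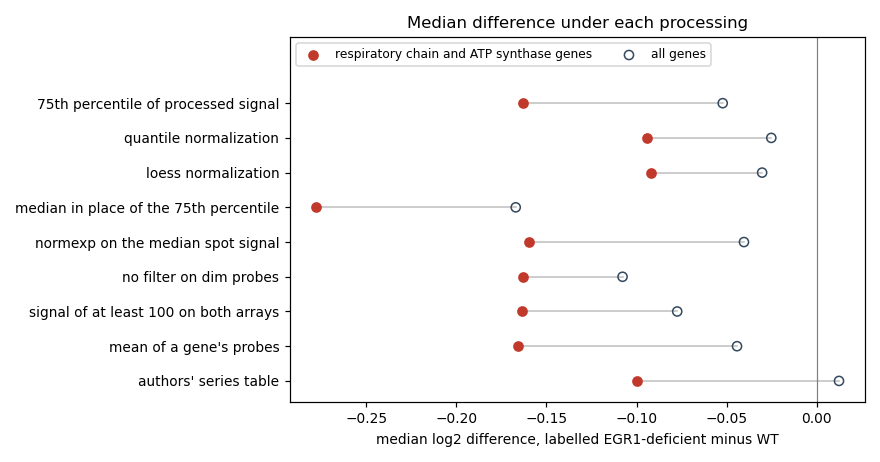
Median log2 difference (labelled EGR1-deficient minus WT) of the respiratory chain and ATP synthase genes (filled red) and of all genes (open) under each of 9 processings. The filled point lies left of the open one in every line, between −0.28 and −0.09.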

How the data were processed

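RNA of 1 culture labelled EGR1-deficient and 1 labelled WT was read on 2 one-colour (Cy3) Agilent arrays, each with 59305 non-control spots. The authors' deposited scanner files hold spot intensity on a linear scale, made with Agilent Feature Extraction 12.1.0.3 per the file headers, whereas the submitters' processing notes name 11.5.1.1. Of these spots, 59.8% were well above background in the sample labelled EGR1-deficient and 55.2% in the WT sample, and none was saturated. The authors' deposited series table lists 29296 spots and equals the processed intensity times 1 constant per array (6.18 for EGR1-deficient, 5.97 for WT), to within 0.1%; it served as an alternative.

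Log2 processed signal minus the array's 75th percentile was used, without outlier spots (77 for EGR1-deficient, 79 for WT). Spots of a probe were averaged, and a gene took its probe of highest mean signal. Accessions in a RefSeq table (GRCm38.p6; the array header names mm9) named 34565 of 56603 probes. Quantile, loess and normexp (offset 50) values came from limma 3.58.1 in R 4.3.3, the rest from Python 3.11.15. The counting step was tested on simulated data. With 1 array per group, the number of arrays limits the precision.

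The genes and lists were chosen with earlier results of these data known. Named in full, by rule, are for each complex the gene of highest signal and those of highest and lowest difference, genes past 1.5-fold or above background on 1 array, tissue isoforms, and up to 4 genes per further list. The arms of complex I and parts of ATP synthase were set after values were seen, as were the other genes named. 1 gene of complex I is counted but not reported here by name.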

Additional observations from a re-analysis of the deposited data

How the results depend on the processing

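With 1 array per group no array could be left out. No paired analysis was possible because the labels give no replicate numbers. 8 alternatives were run, and the median of the genes stayed below 0 and below the median of all genes in each. Centring on the median and the authors' series table move all genes by 1 constant, so the gap stayed at −0.11 almost by construction. It was −0.07 after quantile normalization and −0.06 after loess. After quantile normalization the median was −0.10 for complex III and −0.057 for ATP synthase. After loess it was −0.092 for all 79 genes, −0.13 for complex II, −0.11 for complex III and −0.062 for ATP synthase. Centring on the median spot in place of the 75th percentile, which brings the median of all genes to −0.17, gave −0.28 for the 79 genes, −0.27, −0.32, −0.32 and −0.27 for complexes I to IV and −0.28 for ATP synthase, with 3 genes, Cox7b, Sdhc and Uqcrfs1, 1.5-fold or more lower. Without a filter on dim probes 1 gene (Cox7b2) was 1.5-fold or more lower and 1 (Cox8b) higher, neither above background on either array. Counts of genes below the median of all genes ran from 51 to 72. Of 88 values, 73 moved by less than the error of repeated spots or, for counts, less than 1.5-fold. These 73 include values that no scaling can change, such as the count above background. They also include the falls after quantile normalization from 74 to 57 genes below 0 and from 72 to 51 below the median of all genes. Naming by gene name and normexp on the mean signal were not run here; normexp was run on the median spot signal, an alternative chosen after seeing the data.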
